A study of Mus musculus with 18 samples.

Results

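The count table rows of Psd and Nfkb2, 2 of 24557 rows, were followed across the 6 groups of a polyamine depletion study in mouse MIN6 cells. The Psd row was chosen by its symbol because earlier results of the same data had shown it to be high with cytokines and low with difluoromethylornithine (DFMO), and because its gene lies opposite exons of Nfkb2, whose own row is given beside it. The values with cytokines in vehicle and with DFMO alone are therefore a description and carry no test. MIN6 is a beta cell line derived from a mouse insulinoma. All groups were of this single line, and each held 3 libraries of polyadenylated RNA that the labels number as biological replicates without naming separate cultures or passages, so a p-value reflects only how far these libraries scatter. Cells received vehicle, 5 mM DFMO (an inhibitor of the polyamine synthesis enzyme ornithine decarboxylase) or 10 µM DENSpm (a polyamine analog that induces polyamine breakdown). Each of the 3 treatments was given without and with a cytokine mixture (IFN-γ, TNF-α and IL-1β), and RNA was taken after 24 h. The groups are called vehicle, DFMO, DENSpm, and the same names with cytokines.

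Nfkb2 encodes p100, a precursor that holds the NF-kB subunit RelB in the cytoplasm and that is cut to the DNA-binding subunit p52 in the alternative NF-kB pathway. Tumour necrosis factor and interleukin 1 act mainly through the canonical pathway of RelA and p50, and Nfkb2 is itself a known transcriptional target of that pathway. Psd (also called EFA6A) encodes an exchange factor that loads the small GTPase Arf6 with GTP and is known mainly from neurons.

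The pair lies tail to tail on chromosome 19. In the GENCODE annotation of GRCm38 (mm10), Nfkb2 (gene ID 18034) runs from 46304320 to 46312385 on the plus strand and Psd (gene ID 73728) from 46312087 to 46327156 on the minus strand. Their exons share 299 bp, from 46312087 to 46312385, which is 3′ untranslated sequence in both genes and overlaps coding exons by 0 bp. The shared stretch is 3.92% of the 7636 bp of Psd exons and 6.52% of the 4584 bp of Nfkb2 exons. Of 8 annotated Nfkb2 transcripts, 2 reach Psd exons, 1 by 299 bp and 1 by 4 bp, and the other coding transcripts end at 46312022 and 46312027, short of Psd. This annotation thus gives the Psd row the end of the longest Nfkb2 transcript and 4 bp of 1 other to read, not exons along the gene. The RefSeq spans of the 2 genes overlap by 316 bp, from 46312085 to 46312400. Which annotation the counting used is not stated. Nfkb2 also shares 531 bp of exons with AC114539.1, a minus-strand noncoding RNA at its start that has no row.

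The Psd row held 14934 counts over the 18 libraries, and the Nfkb2 row held 852. Per kilobase of the gene's own exons these were 1956 and 186 counts. Among all rows the Psd row ranked 114 by counts, with 0.168% of the total. It exceeded 98.8% of the 1359 rows that face between 200 and 400 bp of opposite exons, whose median was 39 counts, and 99.96% of the rows with no gene opposite, whose median was 1.

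**Figure D1:**
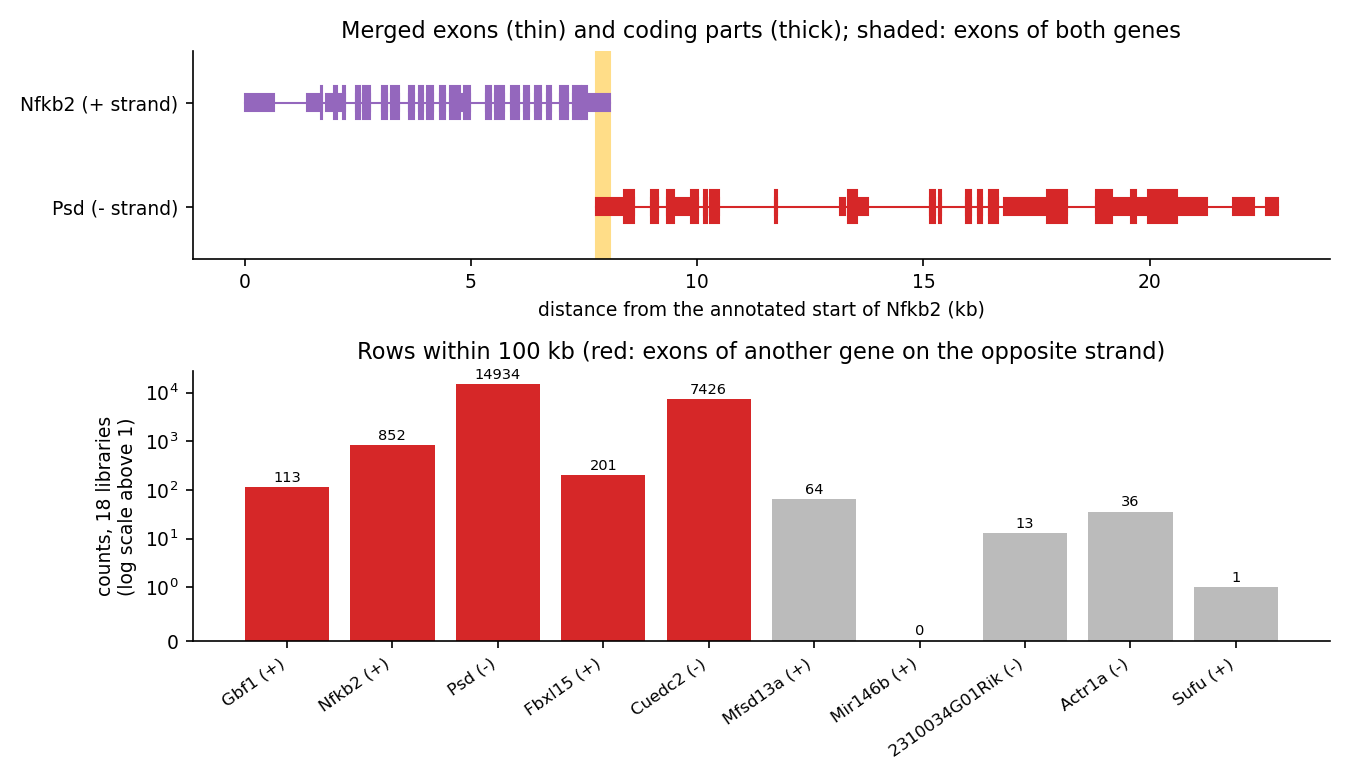
The upper part maps the exons of both genes by distance in kilobases from the Nfkb2 start, with coding exons drawn taller, and the lower part gives the counts of each row within 100 kb on an axis that is logarithmic above 1, summed over 18 libraries. The 2 genes meet in a stretch of 299 bp at their ends, and the Psd row (14934 counts) and the Cuedc2 row (7426 counts) stand above all other rows of the neighbourhood.

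Of the genes within 100 kb, Cuedc2, which encodes a protein with a ubiquitin-binding CUE domain, held 7426 counts, or 3149 per exonic kilobase. Its exons face 345 bp of the ubiquitin ligase subunit gene Fbxl15 and 229 bp of Gm26792. The rows with no exons opposite were low. Actr1a, which encodes the dynactin subunit Arp1, held 8.33 counts per exonic kilobase, and Sufu, an inhibitor of Hedgehog signalling, held 1 count in all. Mfsd13a held 64 counts, 2310034G01Rik 13 and the microRNA precursor Mir146b 0. Gbf1, an exchange factor for Arf GTPases that faces 296 bp of Gm16726, held 113, and Fbxl15 held 201.

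The labels describe strand-specific libraries, and the strand setting of the read counting is not given in the sources used here. For such libraries counted with the opposite setting, a row holds reads of the gene that faces it. Rows with opposite exons, 5843 in number, held 80.7 to 85.2% of the counts in each library, and 85 rows of ribosomal protein genes, which are highly expressed in growing cells, held only 0.0977 to 0.183%. Which of the 2 genes gave the counts of the Psd row, and whether sequence beyond the shared 299 bp contributed, was not tested, since the tables give 1 value per gene. Each value below is accordingly a value of a row.

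The promoters are shown because Nfkb2 is a known NF-kB target, so a reader may compare the sequence upstream of both genes. The windows run from 250 bases before to 50 after an annotated RefSeq start (GRCm38.p6), and capitals mark matches to the 10-base kappa-B consensus, searched on both strands. The first Nfkb2 window is chr19:46304487-46304786 on the plus strand, the second is chr19:46305445-46305744 on the plus strand, and the Psd window is chr19:46326817-46327116 on the minus strand.
Nfkb2 first start: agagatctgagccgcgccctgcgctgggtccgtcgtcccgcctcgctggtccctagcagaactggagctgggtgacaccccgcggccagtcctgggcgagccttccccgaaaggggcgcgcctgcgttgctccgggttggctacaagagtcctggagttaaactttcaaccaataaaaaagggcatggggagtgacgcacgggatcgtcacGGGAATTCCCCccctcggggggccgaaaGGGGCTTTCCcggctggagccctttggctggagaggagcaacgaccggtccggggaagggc
Nfkb2 second start: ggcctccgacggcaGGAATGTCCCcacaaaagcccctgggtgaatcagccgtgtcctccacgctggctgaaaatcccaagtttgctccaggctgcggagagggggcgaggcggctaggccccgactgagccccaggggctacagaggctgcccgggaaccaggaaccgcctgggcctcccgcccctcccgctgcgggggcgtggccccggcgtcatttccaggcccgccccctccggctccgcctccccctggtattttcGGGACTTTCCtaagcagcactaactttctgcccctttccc
Psd start: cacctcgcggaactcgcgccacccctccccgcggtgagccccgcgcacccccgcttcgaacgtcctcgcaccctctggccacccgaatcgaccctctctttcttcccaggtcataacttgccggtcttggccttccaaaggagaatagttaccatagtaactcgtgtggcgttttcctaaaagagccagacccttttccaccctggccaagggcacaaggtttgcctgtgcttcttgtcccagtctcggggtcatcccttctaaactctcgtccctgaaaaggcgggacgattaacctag
The first Nfkb2 window holds 3 matches, 2 of which overlap in 1 run of capitals, and the second holds 2. A further Nfkb2 window, chr19:46305680-46305979, which overlaps the second, holds 1 match, in the letters they share. The Psd window shown and a second Psd window, chr19:46327107-46327406, hold 0. The RefSeq spans of the genes reach further upstream, to 46300994 for Nfkb2 and 46328127 for Psd. None of the windows given here covers those positions, so the matches are not those of every start. Of all 32851 mouse promoter windows of this length, 2779 (8.46%) hold at least 1 match and 402 (1.22%) at least 2. A match is a stretch of letters, not a measured binding site.

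Without cytokines the Psd row was highest in vehicle, lower with DENSpm and lowest with DFMO. Normalised counts (CPM, counts scaled to a common library total after TMM) of the Psd row were 715.7, 951.3 and 686.6 in the 3 vehicle libraries, from 385, 442 and 436 counts (785 ± 145, SD, n = 3). They were 627.9, 560.0 and 510.0 with DENSpm, from 288, 300 and 258 counts (566 ± 59.1, n = 3). With DFMO they were 381.3, 412.6 and 407.6, from 163, 186 and 206 counts (401 ± 16.8, n = 3). The libraries of the 3 groups did not overlap, and each DFMO library lay below each DENSpm library, which in turn lay below each vehicle library. The low DFMO values against vehicle are among those that chose the row. For this and every separation of libraries given below, how many other rows separate in the same way was not counted.

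With cytokines the Psd row stood at several times those levels in all treatments. It reached 3004.2, 2691.2 and 3114.8 CPM in vehicle with cytokines (1296, 1226 and 1334 counts, 2937 ± 220, SD, n = 3). With DFMO and cytokines it reached 3505.6, 2270.2 and 2894.7 CPM (1310, 997 and 1333 counts, 2890 ± 618, n = 3). With DENSpm and cytokines it reached 3407.1, 2834.4 and 3243.9 CPM (1615, 1785 and 1374 counts, 3162 ± 295, n = 3). The lowest library with cytokines, the DFMO with cytokines library 2, was above the highest without, the vehicle library 2. The 3 groups with cytokines overlapped one another, and the DFMO with cytokines libraries spanned both the highest and the lowest of these 9 values.

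**Figure D2:**
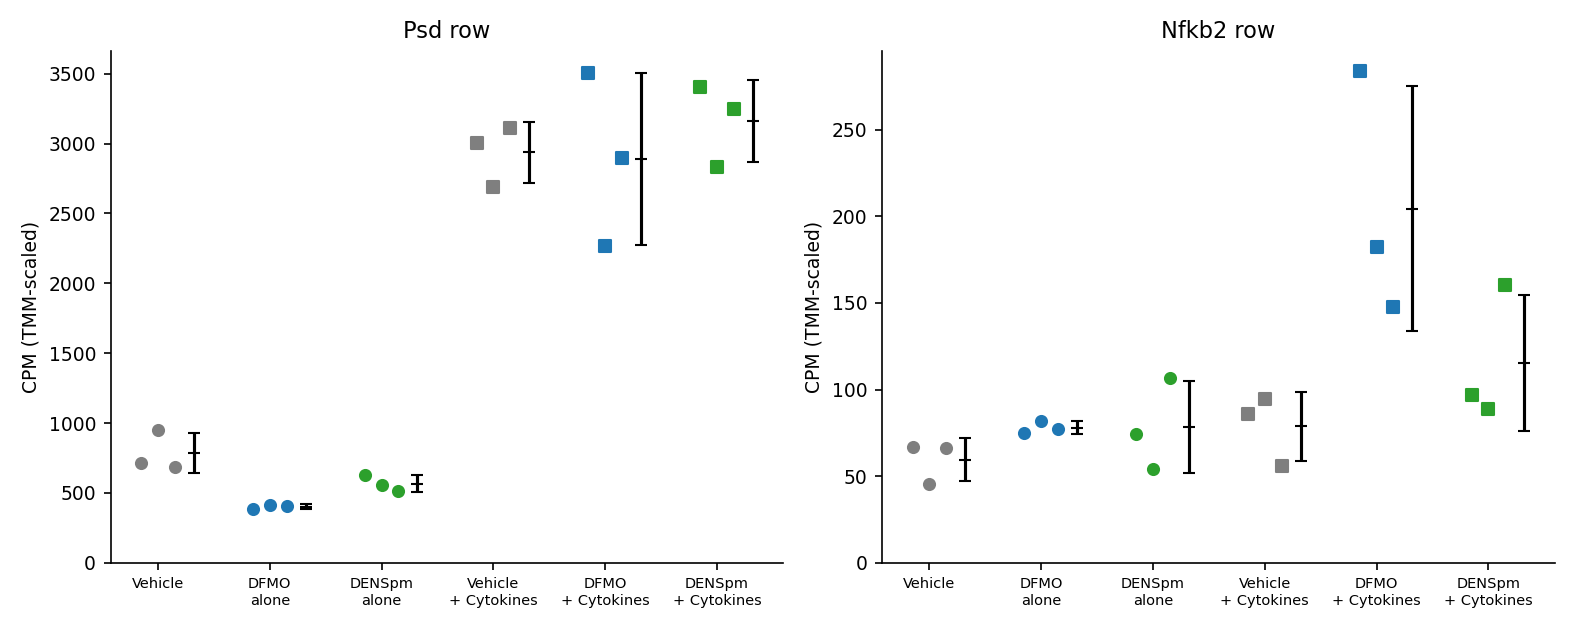
Normalised CPM of the Psd row (left) and the Nfkb2 row (right) in each library by group, with points for libraries and bars for the group mean and SD (n = 3). The Psd row separates libraries with cytokines (2270.2 to 3505.6 CPM) from those without (381.3 to 951.3 CPM), whereas in the Nfkb2 row DFMO with cytokines stands highest on average, at 204 CPM.

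In vehicle, cytokines went with a 3.77-fold higher Psd row (log2 fold change 1.92 ± 0.12, SE), a comparison in which 9.90% of rows passed the test. DFMO alone went with a lower Psd row (-0.94 ± 0.13 on the log2 scale, 14.6% of rows called). Both contrasts chose the row.

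In DFMO-treated cells, cytokines raised the Psd row 7.08-fold, from 401 ± 16.8 to 2890 ± 618 CPM (log2 fold change 2.82 ± 0.13, adjusted p = 4.5e-23, edgeR quasi-likelihood test with Benjamini-Hochberg adjustment over all rows tested). In this comparison 13.1% of 3302 rows passed. In DENSpm-treated cells the row rose 5.59-fold, from 566 ± 59.1 to 3162 ± 295 CPM (2.48 ± 0.15, adjusted p = 9.6e-14 by edgeR), where 7.42% of 3315 rows passed. All 3 libraries with cytokines were above all 3 without in each case. These 2 comparisons use libraries other than those of the vehicle contrast, although the DFMO libraries without cytokines are also those of the contrast that chose the row. In bulk RNA of this kind, a change in how many cells carry a transcript and a change in RNA per cell cannot be told apart.

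The cytokine response of the Psd row stood higher with DFMO than in vehicle. The difference between the 2 responses was 0.91 ± 0.18 on the log2 scale (95% interval 0.55 to 1.26), and 0.424% of 3302 rows, 14 in number, were called for such a difference. Both contrasts that chose the row enter this difference, which is therefore a description. By level, the groups differed without cytokines (401 ± 16.8 against 785 ± 145 CPM), and with cytokines DFMO and vehicle differed by -0.03 ± 0.12 (95% interval -0.27 to 0.20, adjusted p = 0.91 by edgeR, 11.1% of rows called). The cytokine response with DENSpm was 0.56 ± 0.20 larger than in vehicle (95% interval 0.15 to 0.97, adjusted p = 0.88 by edgeR), which did not pass. This difference also holds the cytokine contrast in vehicle that chose the row, so it is not independent of that choice. In that test edgeR called 0 of 3315 rows (0%), with 169 at an unadjusted p under 0.05, and DESeq2 called 0.

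DENSpm alone gave a difference of -0.45 ± 0.15 from vehicle in the Psd row (95% interval -0.75 to -0.16). It did not pass (adjusted p = 0.17 by edgeR) in a comparison that called 0.543% of rows. All 3 DENSpm libraries lay below all 3 vehicle libraries, but how many other rows separate in this way was not counted. Each comparison of a drug with vehicle, without or with cytokines, shares its vehicle libraries with a contrast that chose the row. With cytokines the DENSpm and vehicle groups differed by 0.11 ± 0.14 (95% interval -0.17 to 0.39, adjusted p = 0.83 by edgeR, 1.33% of rows called). Between the drugs, the Psd row was higher with DENSpm than with DFMO by 0.50 ± 0.15 (adjusted p = 0.025 by edgeR), where 11.2% of 3713 rows passed. This test shares the DFMO libraries that chose the row, and its call was lost without DFMO library 1, 2 or 3 or DENSpm library 1, with 0.42 and adjusted p = 0.12 without the last. With cytokines the drugs differed by 0.13 ± 0.14 (95% interval -0.15 to 0.41, adjusted p = 0.66 by edgeR, 10.2% of rows called).

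Of the other rows within 100 kb, only Gbf1, Fbxl15 and Cuedc2 had enough counts to be tested, Gbf1 not in the fit of DFMO with vehicle. Among these, Cuedc2 alone was called. It was lower in DFMO with cytokines than in vehicle with cytokines (695 ± 95.1 against 1083 ± 24.2 CPM, SD, n = 3), by -0.65 ± 0.13 on the log2 scale (SE, adjusted p = 2.6e-04 by edgeR). It was higher with DENSpm than with DFMO by 0.63 ± 0.15 without cytokines (adjusted p = 0.0034 by edgeR, and 0.063 without DFMO library 3) and by 0.65 ± 0.15 with them (adjusted p = 0.0020 by edgeR). Of all rows tested, 11.1% were called in the first of these comparisons, 11.2% between the drugs without cytokines and 10.2% with them.

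The Nfkb2 row followed another order and held far fewer counts. Its CPM values were 66.9, 45.2 and 66.1 in vehicle, from 36, 21 and 42 counts (59.4 ± 12.3, SD, n = 3). With DFMO they were 74.9, 82.1 and 77.2, from 32, 37 and 39 counts (78.0 ± 3.68), and with DENSpm 74.1, 54.1 and 106.8, from 34, 29 and 54 counts (78.3 ± 26.6). In CPM all 3 DFMO libraries lay above the vehicle libraries, but the raw counts of these groups overlapped. The fitted difference was 0.40 ± 0.33 on the log2 scale (SE, 95% interval -0.26 to 1.07), a description without a test. The DENSpm libraries overlapped both the DFMO and the vehicle libraries. With cytokines the Nfkb2 row stood at 85.8, 94.4 and 56.0 CPM in vehicle, from 37, 43 and 24 counts (78.7 ± 20.1). DFMO with cytokines gave 283.7, 182.2 and 147.7 CPM, from 106, 80 and 68 counts (204 ± 70.7), and DENSpm with cytokines gave 97.0, 88.9 and 160.5, from 46, 56 and 68 counts (116 ± 39.2). The 2 drug groups with cytokines overlapped, and each DFMO with cytokines library was above every library of vehicle with cytokines.

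In DFMO-treated cells, cytokines raised the Nfkb2 row 2.56-fold (1.36 ± 0.31, adjusted p = 0.0013 by edgeR). Among cytokine-treated cells, DFMO raised the Nfkb2 row over vehicle by 1.36 ± 0.31 (adjusted p = 0.0018 by edgeR), and leaving out DFMO with cytokines library 1 gave 1.06 with adjusted p = 0.056. In vehicle the row differed by 0.40 ± 0.33 with cytokines and by 0.40 ± 0.33 with DFMO, given without a test. In DENSpm-treated cells the cytokine difference was 0.55 ± 0.35 (95% interval -0.16 to 1.26, adjusted p = 0.44 by edgeR). DENSpm differed from vehicle by 0.40 ± 0.36 without cytokines (adjusted p = 0.72) and by 0.54 ± 0.35 with them (adjusted p = 0.58 by edgeR). The excess of the cytokine response with DFMO over that in vehicle was 0.95 ± 0.46 in the Nfkb2 row (adjusted p = 0.57 by edgeR), close in size to the Psd row's 0.91 but with a wider 95% interval of 0.04 to 1.87. With cytokines, DENSpm stood below DFMO by -0.83 ± 0.32 (95% interval -1.47 to -0.19), with an adjusted p = 0.093 by edgeR.

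**Figure D3:**
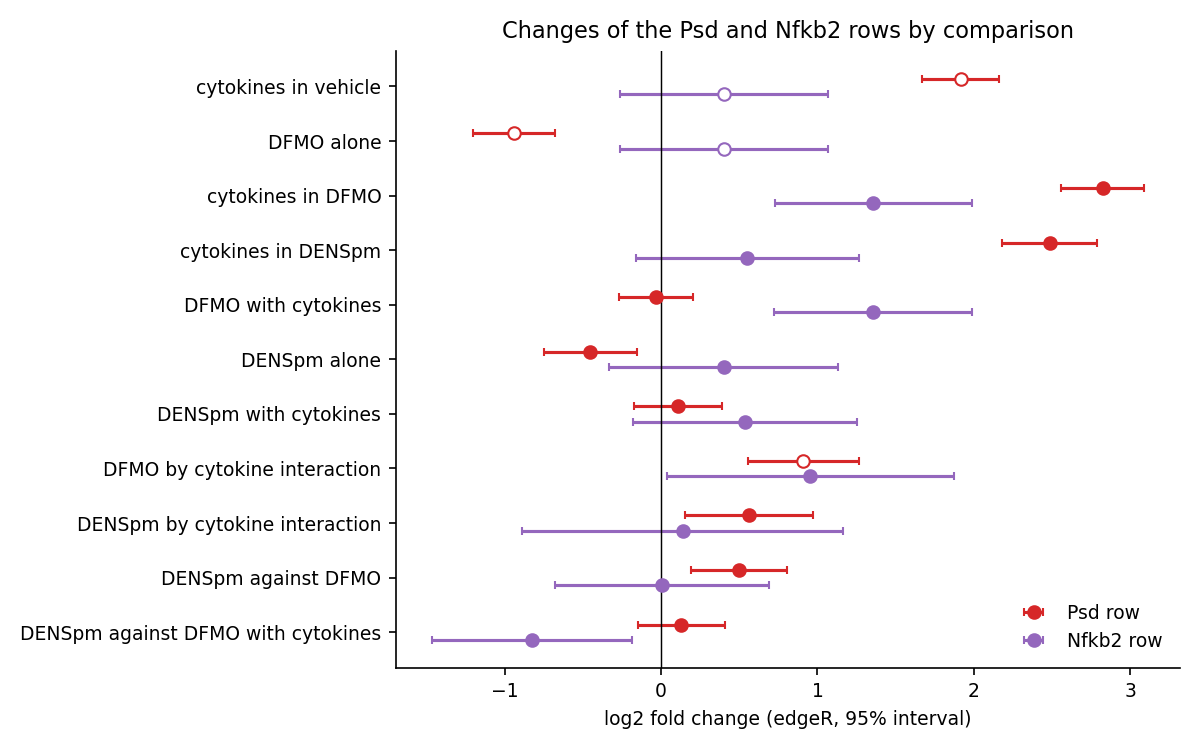
Log2 fold change of the Psd row and the Nfkb2 row in each comparison, with 95% intervals. Filled circles are tested and open circles only described, because those contrasts chose the row or, for the interaction of the Psd row with DFMO, hold the contrasts that did. The DENSpm interaction of the Psd row is filled, although it holds the cytokine contrast in vehicle that chose the row. The Psd row lies between 1.92 and 2.82 in the 3 cytokine comparisons, and the Nfkb2 row reaches its largest values, 1.36, in the 2 comparisons that hold the DFMO with cytokines libraries against vehicle with cytokines or DFMO.

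The share of the pair's counts that fell in the Nfkb2 row gives the same data as a ratio that does not depend on library scaling. Even values were in excess in the tables, with 24598 values of 2 against 15440 of 1, so counts may not be independent of one another and the intervals may be too narrow. Over all libraries 5.40% of the pair's counts were in the Nfkb2 row (exact 95% interval 5.05 to 5.76%, counting error only). The share was 7.29 ± 2.39% in vehicle and 2.64 ± 0.819% in vehicle with cytokines (SD, n = 3 each). It was 16.3 ± 0.348% with DFMO and 6.59 ± 1.5% with DFMO and cytokines. With DENSpm it was 12.2 ± 4.49% and with DENSpm and cytokines 3.51 ± 1.05%. In each treatment all 3 libraries without cytokines were above all 3 with cytokines. The DFMO libraries, at 15.9 to 16.6%, lay above every vehicle library, and DENSpm library 3, at 17.3%, exceeded them. The Psd row holds most of the pair's counts and was chosen as high with cytokines and low with DFMO. The shares in vehicle, vehicle with cytokines and DFMO therefore follow in part from that choice, and all shares are a description. The 2 rows did not keep 1 ratio across the groups, which is a statement about the 2 rows and does not say which of them changed.

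**Figure D4:**
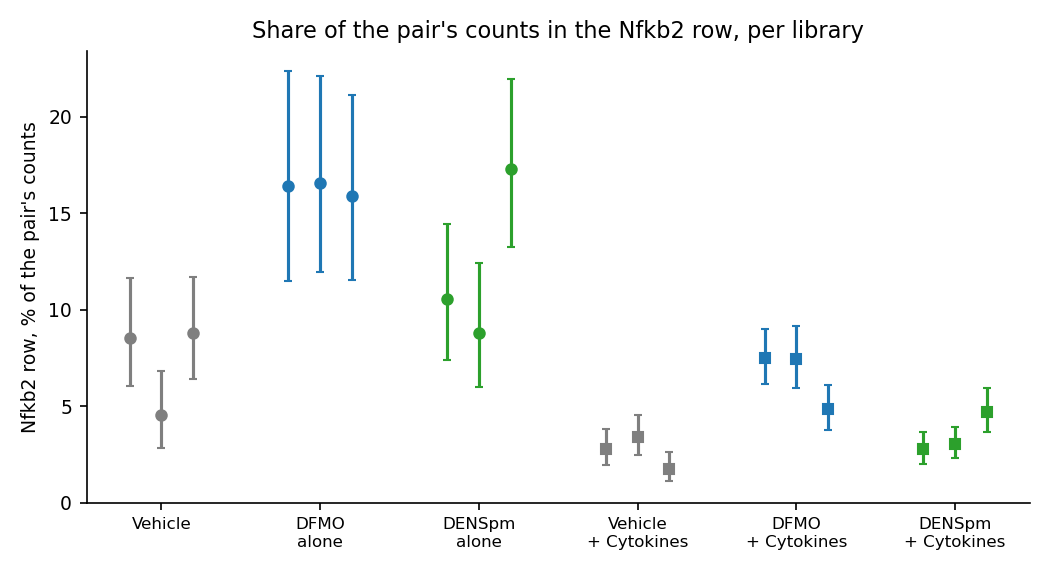
Percent of the summed Psd and Nfkb2 counts that fell in the Nfkb2 row, by library, with exact 95% intervals. Shares run from 1.77% in a vehicle with cytokines library to 17.3% in a DENSpm library, and within each treatment the libraries with cytokines lie below those without.

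Of the other NF-kB subunits, none had a row with enough counts to test. Nfkb1, the gene of p105 and p50, held 35 counts in all libraries together, Rela 17, Relb 7 and Rel 11, and these rows were not tested. All 4 have no exons of another gene opposite, and rows with no gene opposite at all had a median of 1 count. Among the 5 subunit genes only Nfkb2 had a row opposite its exons. The lists of other pathway genes below were written with earlier results of these data known, and a row could stand for the named gene or for the one opposite. Of all 24557 rows, 3713 passed the count filter over the 18 libraries, 3302 in the fit of DFMO with vehicle and 3315 in that of DENSpm. The numbers of list members that passed are to be read beside these and are no result about the pathway.

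Among 12 inhibitors and IkB proteins, 2 rows of 14 passed the count filter, Bcl3 and Ccer2. Ccer2 faces 314 bp of Nfkbib, the gene of the inhibitor IkB beta. It rose with cytokines in DFMO from 5, 1 and 1 to 21, 10 and 24 counts (2.99 ± 0.96, adjusted p = 0.027 by edgeR). This call was lost without DFMO library 2 or 3 or DFMO with cytokines library 1 or 3 (adjusted p = 0.10 to 0.11). The counts that let Ccer2 pass the filter in this fit were mainly those of DFMO with cytokines, so the call is no independent support. Bcl3, an atypical IkB protein that binds p50 and p52, held 398 counts and did not pass in any test. Of 27 kinases and adaptors, 0 passed by their own rows. Serpinb6a, an intracellular protease inhibitor gene whose exons face Nqo2, 1110046J04Rik and 241 bp of Ripk1, the kinase of tumour necrosis factor receptor signalling, rose with cytokines in DFMO (1.38 ± 0.28, adjusted p = 2.0e-04 by edgeR), from 65.5 ± 8.11 to 174 ± 21.7 CPM. In DENSpm the cytokine differences of Serpinb6a (0.45 ± 0.25, adjusted p = 0.36) and Ccer2 (1.70 ± 0.70, adjusted p = 0.17 by edgeR) did not pass. It was also higher with DENSpm than with DFMO (0.98 ± 0.27, adjusted p = 0.012 by edgeR), at 130 ± 18.6 CPM against 65.5 ± 8.11, a call lost without DFMO library 1 (adjusted p = 0.068) or DENSpm library 2 (adjusted p = 0.055).

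Of 11 receptor genes, Il1r1 and Tnfrsf1a passed the filter by their own rows, and Il1rap by the row of Gm20319. Il1r1, the signalling receptor of interleukin 1, was higher in DFMO with cytokines (27, 13 and 18 counts) than in vehicle with cytokines (3, 4 and 3 counts), by 2.57 ± 0.77 (adjusted p = 0.020 by edgeR). That call was lost without vehicle with cytokines library 1 (adjusted p = 0.072) or 3 (0.063) or DFMO with cytokines library 1 (0.12). Gm20319, which faces 552 bp of the receptor accessory gene Il1rap, rose with cytokines in DFMO by 0.57 ± 0.20 (adjusted p = 0.045 by edgeR), and the call was lost without any 1 library (0.055 to 0.15). Its cytokine difference in DENSpm, 0.54 ± 0.22, did not pass (adjusted p = 0.15 by edgeR).

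Of 30 NF-kB target genes, 5 passed the filter by their own rows over all 18 libraries, and 3 in the fit of DFMO with vehicle. Icam1 and Csf1 did not pass it there and so were not tested for cytokines in DFMO. Cxcl16 also passed by the row of Zmynd15, which shares 552 bp with that chemokine gene. Zmynd15 rose with cytokines in DFMO (5.63 ± 0.60, adjusted p = 2.1e-10 by edgeR), from 0, 2 and 3 counts to 60, 114 and 74. It rose in DENSpm as well (3.89 ± 0.64, adjusted p = 7.5e-05 by edgeR), from 2, 1 and 6 counts to 42, 73 and 30. The Cxcl16 row itself held 284 counts and passed in no test. Irf1, a transcription factor induced by interferon gamma and NF-kB, faces 135 bp of Gm17334. It rose with cytokines by 2.00 ± 0.40 in DFMO (adjusted p = 2.1e-04 by edgeR) and by 2.47 ± 0.43 in DENSpm (adjusted p = 1.3e-04), from 35.2 ± 20.2 and 24.2 ± 9.18 to 146 ± 17.9 and 136 ± 28.7 CPM. The chemokine gene Cxcl10, which faces 133 bp of Art3, held 0 counts in all 9 libraries without cytokines and 3 to 55 in each with them. Icam1, an adhesion molecule gene, rose with cytokines in DENSpm from 1, 0 and 0 counts to 10, 22 and 4 (adjusted p = 0.046 by edgeR), a call lost without DENSpm library 1, 2 or 3 or DENSpm with cytokines library 1 or 2 (adjusted p = 0.054 to 0.19). The counts that let Zmynd15, Cxcl10, Icam1 and Csf1 pass the filter were mainly those with cytokines. These rows thus entered the tests through the groups where they are high, and their cytokine differences are no independent support. Csf1, at 105 counts, was called in none of the tests it entered. Of 11 ligand genes, Il1a alone passed the filter by its own row, with 649 counts, and passed in no test.

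The other exchange factors and Arf6 held 0 to 112 counts each. Psd2 held 1 count, Psd3 17 and Psd4 0, the paralogs of Psd, while Arf6, their substrate, held 72, and the other Arf exchange factors Iqsec1, Cyth1, Cyth2 and Cyth3 held 17, 12, 112 and 21. Arf6 passed the filter in the fit of DFMO with vehicle and over all 18 libraries, but not in that of DENSpm with vehicle. It was not called in any test it entered.

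Over the 18 libraries, the rows with log2 CPM most like the Psd row were chosen by Pearson correlation among 3711 rows with a mean of at least 5 CPM, and all the libraries share the cytokine contrast. The highest 6 were Emc9, D730005E14Rik, 2610020C07Rik, Parp9, H2-Q4 and Mir6381. Emc9 (r = 0.973) faces 14 bp of the proteasome activator gene Psme1, and D730005E14Rik (0.973) faces no exons. 2610020C07Rik (0.969) faces 239 bp of the translation termination factor gene Gspt1. Parp9 (0.969) faces 458 bp of its partner ubiquitin ligase gene Dtx3l. H2-Q4 (0.969) faces 496 bp of Gm11131, and Mir6381 (0.968) faces 24 bp of the guanylate-binding protein gene Gbp2. Emc9 stood at 44.6 ± 9.65 CPM in vehicle and 622 ± 64.1 with cytokines, while 2610020C07Rik stood at 4706 ± 168 and 8830 ± 341. The rows with the lowest r were Anxa13 (-0.905), Il12rb2 (-0.901), which faces 1519 bp of Serbp1, and Gm10007 (-0.900). Anxa13 stood at 247 ± 33.2 CPM in vehicle and 37.5 ± 22.9 with cytokines. The Nfkb2 row had r = 0.515, which ranked it 368. By Spearman's rank correlation, 2 of the 6 rows remained among the highest 6 and 0 of the 3 among the lowest 3.

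The 18 libraries held 403377 to 639625 counts in genes each, with 14840 rows above 0. This depth gave the Psd row 163 to 1785 counts in each library and the Nfkb2 row 21 to 106. Beta cell markers were checked against the label of the line. Of 16 markers, 15 had counts in their own rows, from 10 for Slc2a2 to 21095 for Chgb, with 1893 for Ins2, 89 for Ins1 and 0 for Ucn3. The own rows held 36714 counts together, and 3 rows opposite markers held 309750, namely Pcsk2os1 (141543) and Pcsk2os2 (141784) opposite Pcsk2 and Nkx2-2os (26423) opposite Nkx2-2. Of 8 markers of other islet cells, Ttr (472), Ghrl (212), Gcg (83) and Sst (42) had counts and the other 4 had 0. The 7 immune markers held 13 counts together, the 5 endothelial and stromal markers 9, and the 5 exocrine markers 3. The immune cell genes Ptprc, Cd3e, Itgam and Adgre1 were at 0 in all libraries in their own rows, and none of the markers of these other cell types had a row opposite.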

How the data were processed

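Whole-number counts per gene were deposited by the authors in 2 tables, with the vehicle libraries in both and identical there. Per the submitters' processing notes, HTSeq, FastQC and DESeq2 were used with mm10; the aligner, annotation and strand setting of the counting were not stated there. The deposited normalised log2 values were not used. Exons and opposite-strand overlaps came from the GENCODE vM21 annotation, and promoters from RefSeq. Rows were filtered with filterByExpr, scaled by TMM and tested with edgeR's quasi-likelihood test (edgeR 4.0.16, limma 3.58.1, R 4.3.3), with Benjamini-Hochberg adjustment over all rows tested and a call at 0.05; the model was tested on simulated data. DFMO and DENSpm comparisons with vehicle were fitted on 12 libraries each, and DENSpm against DFMO on all 18. Alternatives were DESeq2 1.42.0, its size factors, no filter, halved counts, the summed pair, other sample sets, a replicate term and leaving out each library. Standard errors are from the fits, and intervals of shares cover counting error only.

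Named genes were the pair, genes within 100 kb, members of 7 lists that passed the filter, and the 6 rows most and 3 rows least like the Psd row. The rows and the lists were chosen with earlier results of these data known.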

Additional observations from a re-analysis of the deposited data

Results flagged for a closer look

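The Psd row was picked out because its cytokine response differed between DFMO and vehicle by 0.91 on the log2 scale (0.908 ± 0.176, SE, in the interaction term of edgeR's fit). In both DFMO and vehicle, all 3 libraries with cytokines were above all 3 without. The row was chosen for its values in the contrasts that make up this difference, so the difference is a description and supports nothing by itself. The cause was not tested.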

How the results depend on the processing

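Of 110 recomputed values of the Psd and Nfkb2 rows in the tested comparisons with all libraries kept, 103 kept their direction and their side of the threshold, and of 120 without 1 library, 105 did. Values given as a description are not counted among these. With counts halved, in case each read pair added 2, the Nfkb2 share of the pair was 5.43% (exact 95% interval 4.94 to 5.95%). The difference of the Psd row between DFMO and vehicle with cytokines turned to 0.039 when the pair was summed, and ran from -0.19 to 0.10 without 1 library. Its difference between DENSpm and DFMO was no longer called when only the groups compared were fitted (0.51, adjusted p = 0.059), and ran from 0.42 to 0.57 without 1 library. With cytokines that difference ran from -0.019 to 0.30. The Nfkb2 difference between DENSpm and DFMO, near 0, was -0.0079 with DESeq2, -0.010 with its size factors and -0.042 with halved counts, and ran from -0.29 to 0.21 without 1 library. With cytokines it passed with halved counts (-0.84, adjusted p = 0.043) and ran from -1.12 to -0.51. The Nfkb2 difference between DFMO and vehicle with cytokines ran from 1.06 to 1.55, and its DENSpm by cytokine interaction from -0.16 to 0.43. The cause was not tested.

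No pairing of the libraries by replicate number was detected. In 0 of 15 pairs of groups was every correlation over 0.1 (-0.06 to 0.097), and 8 of 18 libraries correlated best with their own number. Counting noise in rows with few counts can hide a shared batch, so this check cannot exclude a pairing by replicate number. With the number as a block, the Psd interaction with DFMO was 0.91, the Nfkb2 difference between DENSpm and DFMO was -0.014, and 13 rows were called in that interaction against 14.

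Calls with DENSpm alone numbered 18, against 43 with DESeq2, 30 with no filter, 31 with halved counts and 2 to 32 without 1 library. Calls with DENSpm and cytokines numbered 44, against 82, 67 with halved counts, and 7 to 21. Calls of the DFMO interaction numbered 14, against 25 with DESeq2, 4 with all 18 libraries and 5 to 19. The 414 calls between DENSpm and DFMO became 269 without DFMO library 2. With 21 to 106 counts in a library, the Nfkb2 row leaves all but large changes undetected.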
